A study of Mus musculus with 4 samples.

Results

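The mitotic spindle and checkpoint genes were a list of 43 genes whose products bring cells into mitosis, build the spindle, hold the chromosomes until each is attached, and split the cell. Members were found by symbol among the probes that the array annotation assigns to exactly 1 gene. This gave 41 genes with 84 probes, of 19057 genes and 45281 probes on the arrays, and Ccnb1 and Mki67 were not analysed here. Of the 41 genes, 37 read above background on at least 1 array and entered the fit, and 30 did so on all 4 arrays. Ccnb2, Nek2, Kif20a and Racgap1 were not above background on any array and have no test.

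Most of these genes are silent in resting cells. They are switched on together late in the division cycle, when B-Myb and Foxm1 act with the MuvB complex on promoters that carry a short element called CHR, often near CCAAT boxes bound by NF-Y. Cyclin-Cdk1 and the Polo and Aurora kinases then drive entry into mitosis, the checkpoint holds back Cdc20 and the anaphase-promoting complex, and separase cuts cohesin once every kinetochore is attached. Resident macrophages of the spleen are long-lived phagocytes that seldom divide.

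RNA came from spleen cells labelled marginal zone macrophages, sorted as CD11b low, F4/80 negative, I-Ab negative and SIGN-R1 positive. All mice were on the BXD2 background, a recombinant inbred line prone to spontaneous autoimmunity, were 2.5 months old, and were killed 10 hours after an injection. The controls were 2 arrays of BXD2 mice given PBS. Another array held BXD2-Ifnar-/- mice given PBS, which lack the receptor for type I interferons, and the labels name no tissue-specific driver for that loss. The last array held BXD2 mice given 25 µg of sLTβR-Fc per mouse intravenously, a soluble decoy that binds the ligands of the lymphotoxin β receptor. Each array pooled the cells of 2 mice. There was 1 array in each of the mutant and decoy groups, no array of a control Fc protein, and no array that combined mutant and decoy. The series was designed to ask what loss of either receptor's signalling does to these macrophages.

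The control arrays correlated at r = 0.992 across the genes tested, which are not independent replicates. A log2 gap of at least 1 between them was seen for 31 of 14369 genes, none of them a mitotic gene of the list. Of the erythroid markers, 4 of 10 had such a gap, all higher on the first control. Between 50.9% and 53% of probes were above background on each array, where the limits lay between 107 and 116 intensity units as deposited. Ifnar1, which encodes part of that receptor, read 157 and 149 on the controls, 191 in Ifnar-/- cells and 117 after sLTβR-Fc. The sources used here do not place this probe against the disrupted stretch, so it does not check the genotype. Cd209b, the gene of SIGN-R1, read 127 and 130 on the controls, 152 in Ifnar-/- cells and 145 after sLTβR-Fc. Siglec1 and Cd5l, 2 of the 12 listed markers of marginal zone macrophages, were not above background on any array.

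The mitotic genes were lower on the Ifnar-/- array than on the BXD2 control arrays. Their median log2 difference was -0.64 over the 37 genes tested, with a range of -1.54 to 0.14, while the median over all 14369 genes tested was 0.015. At a Benjamini-Hochberg adjusted p below 0.05 over all genes, limma called 23 of the 37 lower and 0 higher. The same fit called 6.71% of all genes tested lower and 6.52% higher. At an unadjusted p below 0.05 the counts were 29 lower and 0 higher, against 11.7% and 12.8% of all genes. The Ifnar-/- array read below both control arrays for 32 of the 37 genes and above both for 4, where 35.2% of all genes lay below both and 42.7% above both. A log2 difference of at least 1 from each control was reached by 2 members, Plk1 and Cdca8, both lower, against 0.953% of all genes lower and 0.578% higher. Some members were kept only through arrays on which they were brighter. Among the 30 that were above background on every array, 22 were called lower, 29 lay below both controls, and the median was -0.71. The shares above are over all 14369 genes tested, dim ones included. A separate fit held only genes above background on all 4 arrays. At an unadjusted p below 0.05 it gave 25 members lower and 0 higher, beside 1517 lower and 1708 higher of all its genes. These are counts and not shares, so they compare only the balance of the 2 directions.

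The gap between the controls was small beside this. Control 2 minus control 1 had a median of 0.046 over the 37 genes, was positive in 23 and negative in 14, and ran from -0.295 to 0.445. Taken against each control array on its own, the median of the Ifnar-/- array was -0.65 and -0.62, values with no test because no residual degree of freedom is left. An adjusted p here measures the difference against a spread taken from the control pair and shared over genes, since the lone array carries no spread of its own. A gene's own control gap counts for little in it. Cdc20 had a control gap of 0.021 and an SE of 0.21, and Cdk1 a gap of 0.445 and an SE of 0.19. In RNA from pooled cells, fewer dividing cells and less mitotic RNA in each cell cannot be told apart.

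**Figure D1:**
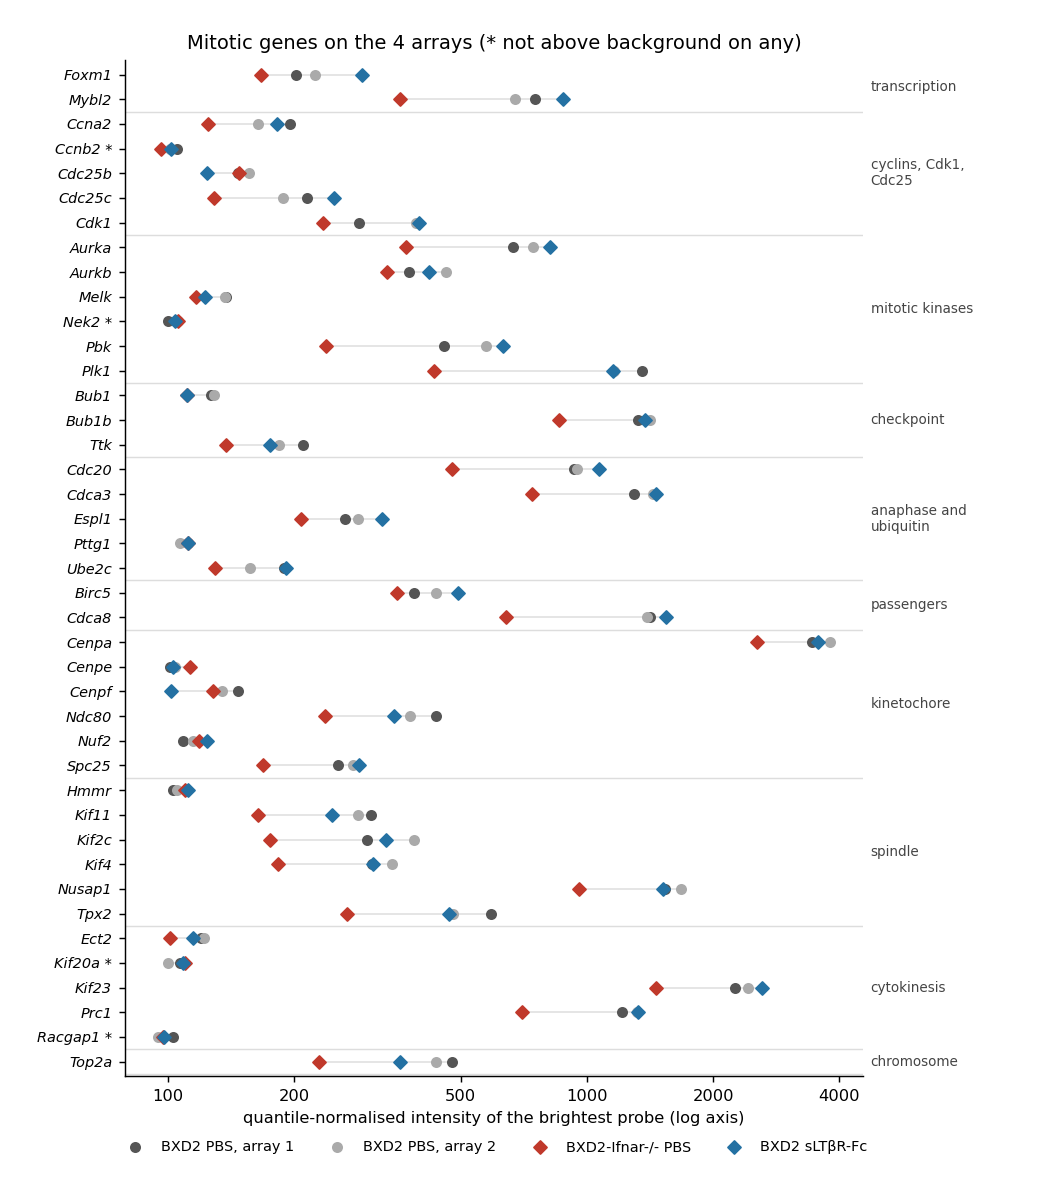
Quantile-normalised intensity (log axis) of the brightest probe of each of the 41 mitotic genes on the 4 arrays, grouped by role, with grey circles for the 2 controls, red diamonds for the Ifnar-/- array and blue diamonds for the sLTβR-Fc array. The red diamond lies left of both controls in 32 of the 37 genes tested, while blue diamonds fall on either side, and levels compare only within a row because each gene has its own probe.

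Promoters are shown because the members move together and are known for a shared promoter layout. They were taken from RefSeq on GRCm38.p6 as windows of 300 bases, from 250 before to 50 after an annotated start. The table held 38 windows for 36 of the 43 listed genes, and Cdc25c, Pbk, Aurkb, Ccna2, Kif20a, Foxm1 and Tpx2 had no entry. The motifs searched on both strands were CCAAT, CHR written either as TTTGAA or as TTTAAA, and an E2F site as TTTGGCGC, TTTCCCGC, TTTCGCGC or TTTGCCGC. Overlapping matches were counted. The 4 windows below belong to the members with the smallest p against the controls among those holding both CCAAT and CHR. They are Plk1 at chr7:122159185-122159484 on the plus strand, Cdca8 at chr4:124936868-124937167 on the minus strand, Top2a at chr11:99024140-99024439 on the minus strand and Kif11 at chr19:37376132-37376431 on the plus strand. Each is written 5′ to 3′ along its gene in its own line, and capitals mark the matches of CCAAT and CHR, read on either strand.
Plk1: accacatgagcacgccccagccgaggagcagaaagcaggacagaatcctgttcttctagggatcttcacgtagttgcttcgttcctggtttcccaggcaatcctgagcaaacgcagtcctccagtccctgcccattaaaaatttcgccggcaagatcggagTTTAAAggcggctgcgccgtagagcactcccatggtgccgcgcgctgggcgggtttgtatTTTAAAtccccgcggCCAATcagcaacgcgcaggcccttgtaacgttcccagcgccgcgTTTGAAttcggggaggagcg
Cdca8: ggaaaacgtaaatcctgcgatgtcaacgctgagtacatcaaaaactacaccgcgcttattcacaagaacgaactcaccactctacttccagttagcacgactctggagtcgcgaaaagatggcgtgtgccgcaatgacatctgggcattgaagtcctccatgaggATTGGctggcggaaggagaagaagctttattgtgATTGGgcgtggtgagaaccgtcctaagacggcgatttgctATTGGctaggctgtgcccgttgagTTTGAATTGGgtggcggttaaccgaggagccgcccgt
Top2a: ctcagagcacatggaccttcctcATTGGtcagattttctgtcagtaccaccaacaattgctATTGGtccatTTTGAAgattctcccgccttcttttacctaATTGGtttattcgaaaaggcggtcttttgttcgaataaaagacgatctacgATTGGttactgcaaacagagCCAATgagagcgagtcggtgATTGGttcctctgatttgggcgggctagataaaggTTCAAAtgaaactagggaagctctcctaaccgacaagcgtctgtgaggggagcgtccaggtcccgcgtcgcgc
Kif11: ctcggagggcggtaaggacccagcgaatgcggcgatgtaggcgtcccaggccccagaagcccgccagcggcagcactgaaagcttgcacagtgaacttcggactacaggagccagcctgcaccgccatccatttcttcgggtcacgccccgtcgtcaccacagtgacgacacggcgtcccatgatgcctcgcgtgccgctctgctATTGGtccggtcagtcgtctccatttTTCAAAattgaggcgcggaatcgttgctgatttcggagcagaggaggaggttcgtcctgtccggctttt
The Plk1 window held 1 CCAAT and 3 CHR matches, that of Cdca8 held 4 and 1, that of Top2a 6 and 2, and that of Kif11 1 and 1. In Cdca8 the CHR match overlaps the CCAAT match nearest the 3′ end, so the pair shares letters.

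Over the 38 member windows, 78.9% held CCAAT, 52.6% held at least 2 copies, 78.9% held CHR and 71.1% held both. The same shares over 14513 windows of the genes tested were 37.6%, 12.9%, 21.5% and 8.41%, and over all 32851 windows 37.4%, 11.7%, 27.6% and 10.7%. The E2F letters were in 1 member window, that of Cdk1 (2.63%), against 3.45% and 2.26% of the other sets. Of the members called lower on the Ifnar-/- array, 19 had a window and 15 of these held both motifs. Of the tested members that were not called, 12 had a window and 6 held both. Mybl2 and Nusap1, both called lower, held neither. These matches are counts of letters and show no binding.

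Among the transcription factors that switch the set on, Mybl2, which encodes B-Myb, fell on the Ifnar-/- array. Its probe read 750 and 672 on the controls, 358 in Ifnar-/- cells and 877 after sLTβR-Fc. That is 1.98-fold below the control mean (log2 difference -0.99 ± 0.20 SE, limma adjusted p = 0.000185). Its further probes differed by -0.16 and -0.09 and passed no threshold, so the fall rests on the brightest probe. Foxm1, the other activator, read 202 and 225 on the controls, 167 in Ifnar-/- cells and 290 after sLTβR-Fc. Against the controls the Ifnar-/- array was not called for Foxm1 (log2 difference -0.35 ± 0.16 SE, limma adjusted p = 0.149).

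The genes that trigger entry into mitosis include cyclin A2, Cdk1 and the Cdc25 phosphatases that activate it. Ccna2 and Cdc25c fell, and Cdk1 and Cdc25b did not pass the threshold. Ccna2 read 196 and 164 on the controls, 125 in Ifnar-/- cells and 182 after sLTβR-Fc, so that only the Ifnar-/- array left the range of the controls. The Ifnar-/- difference for Ccna2 was -0.52 ± 0.13 SE on the log2 scale (limma adjusted p = 0.00353). Cdc25c read 215 and 188 on the controls, 129 in Ifnar-/- cells and 249 after sLTβR-Fc. Cdc25c was 1.56-fold lower on the Ifnar-/- array (log2 difference -0.64 ± 0.15 SE, limma adjusted p = 0.00104), and a further probe of it was also called, at -0.53. The brightest Cdk1 probe missed the threshold (limma adjusted p = 0.056) and a further probe lay at 0.06.

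The kinases that run mitosis held the largest difference of the whole list. Plk1, the Polo kinase of centrosome maturation, mitotic entry and cytokinesis, read 1352 and 1158 on the controls, 432 in Ifnar-/- cells and 1155 after sLTβR-Fc. The Ifnar-/- array stood apart from the other 3, which lay close together. The difference was 2.9-fold (log2 difference -1.54 ± 0.21 SE, limma adjusted p = 1.77e-08), and Plk1 has a single probe. Pbk, a mitotic kinase also known as TOPK, read 455 and 574 on the controls, 238 in Ifnar-/- cells and 632 after sLTβR-Fc. Pbk was 2.15-fold lower on the Ifnar-/- array (log2 difference -1.10 ± 0.20 SE, limma adjusted p = 1.51e-05). Aurka, the Aurora kinase of the spindle poles, read 665 and 745 on the controls, 370 in Ifnar-/- cells and 815 after sLTβR-Fc. For Aurka the Ifnar-/- difference was -0.93 ± 0.20 SE (log2, limma adjusted p = 0.000454). Aurkb, the Aurora kinase of the chromosomal passenger complex, and Melk were not called, though both read below both controls on the Ifnar-/- array.

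Of the checkpoint genes, Bub1b and Ttk fell and Bub1 did not pass the threshold. Bub1b, which encodes BubR1, an inhibitor of Cdc20, read 1324 and 1416 on the controls, 859 in Ifnar-/- cells and 1373 after sLTβR-Fc. Its Ifnar-/- value was 1.59-fold below the control mean (log2 difference -0.67 ± 0.21 SE, limma adjusted p = 0.0176), and a further probe lay at -0.45 without passing. Ttk, the Mps1 kinase that starts checkpoint signalling, read 210 and 184 on the controls, 138 in Ifnar-/- cells and 175 after sLTβR-Fc. Ttk was lower by -0.52 ± 0.14 SE on its brightest probe (log2, limma adjusted p = 0.00587), while a further probe above background on all 4 arrays lay at 0.003, so the call holds for 1 of its probes. Bub1 read 127 and 129 on the controls and was not above background on either lone array.

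Of the genes tied to ubiquitin-driven destruction and the onset of anaphase, Cdc20, Cdca3 and Ube2c fell, and Espl1 (separase) and Pttg1 (securin) did not pass the threshold. Cdc20, the activator of the anaphase-promoting complex and the target of the checkpoint, read 933 and 946 on the controls, 477 in Ifnar-/- cells and 1066 after sLTβR-Fc. The controls of Cdc20 were nearly equal and the Ifnar-/- array lay 1.97-fold below them (log2 difference -0.98 ± 0.21 SE, limma adjusted p = 0.000263). A pair of further Cdc20 probes was called lower too, at -0.86 and -0.75, and no other member had more than 1 further probe called. Cdca3, a trigger of mitotic entry that recruits a ubiquitin ligase to Wee1, read 1293 and 1439 on the controls, 739 in Ifnar-/- cells and 1463 after sLTβR-Fc. Cdca3 was 1.85-fold lower (log2 difference -0.88 ± 0.21 SE, limma adjusted p = 0.00109), with a further probe called at -0.71. Ube2c, the ubiquitin-conjugating enzyme of the anaphase-promoting complex, read 189 and 157 on the controls, 130 in Ifnar-/- cells and 192 after sLTβR-Fc. Ube2c had the largest adjusted p among the 23 calls (log2 difference -0.41 ± 0.13 SE, limma adjusted p = 0.0294), and the call was lost under median scaling, with no filter on dim genes, without a variance trend, and with all values raised to a floor at the mean background limit.

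The chromosomal passengers Cdca8 and Birc5 sit with Aurora B at the inner centromere and later on the midzone. Cdca8, which encodes Borealin, read 1411 and 1392 on the controls, 640 in Ifnar-/- cells and 1541 after sLTβR-Fc. Cdca8 fell 2.19-fold (log2 difference -1.13 ± 0.21 SE, limma adjusted p = 2.17e-05) and its further probe was called at -0.72. Birc5, which encodes survivin, read below both controls on the Ifnar-/- array and was not called.

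At the kinetochore, where spindle fibres attach, Ndc80 and Spc25 fell. Both encode subunits of the Ndc80 complex, as does Nuf2, which was not called. Ndc80 read 436 and 379 on the controls, 237 in Ifnar-/- cells and 346 after sLTβR-Fc, a difference of -0.78 ± 0.19 SE for the Ifnar-/- array (log2, limma adjusted p = 0.00153). Spc25 read 255 and 276 on the controls, 169 in Ifnar-/- cells and 286 after sLTβR-Fc, a difference of -0.66 ± 0.17 SE (log2, limma adjusted p = 0.00318). A further probe of Spc25, above background on all 4 arrays, lay at -0.23, and one of Ndc80, above background on 1 array, at -0.15. Neither further probe was called. For both genes the Ifnar-/- array lay below the other 3. Cenpa, the histone H3 variant of centromeres, the motor Cenpe and the kinetochore protein Cenpf were not called on this array. Cenpe and Nuf2, with Hmmr and Pttg1, were the 4 members that read above both controls, and each was above background on fewer than 4 arrays.

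Of the spindle motors and spindle-assembly factors, 5 of 6 fell, and Hmmr, which encodes a spindle-pole protein, did not pass. Kif11, the Eg5 motor that pushes spindle poles apart, read 305 and 284 on the controls, 164 in Ifnar-/- cells and 246 after sLTβR-Fc. Kif11 was 1.8-fold lower on the Ifnar-/- array (log2 difference -0.85 ± 0.17 SE, limma adjusted p = 9.54e-05), with a further probe called at -0.31. Kif2c, a motor that takes microtubules apart at centromeres, read 298 and 386 on the controls, 175 in Ifnar-/- cells and 332 after sLTβR-Fc. The controls of Kif2c were further apart than those of most members, and the Ifnar-/- array still lay below both (log2 difference -0.95 ± 0.18 SE, limma adjusted p = 4.58e-05). Kif4, a chromosome-arm and midzone motor, read 307 and 342 on the controls, 183 in Ifnar-/- cells and 308 after sLTβR-Fc. Its Ifnar-/- difference was -0.82 ± 0.18 SE (log2, limma adjusted p = 0.000318), and its further probes, above background on 1 and on 3 arrays, lay at -0.10 each. Tpx2, which activates Aurora A on the spindle, read 589 and 480 on the controls, 267 in Ifnar-/- cells and 468 after sLTβR-Fc. Tpx2 was 1.99-fold lower on the Ifnar-/- array (log2 difference -0.99 ± 0.20 SE, limma adjusted p = 9.09e-05). Nusap1, which bundles spindle fibres around chromosomes, read 1531 and 1673 on the controls, 958 in Ifnar-/- cells and 1516 after sLTβR-Fc. Nusap1 differed by -0.74 ± 0.20 SE on its brightest probe (log2, limma adjusted p = 0.00728), and the median of its 4 probes, 2 of which were not above background on any array, lay at 0.04.

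All 3 tested genes of cytokinesis fell. Of 10 alternative settings with a test, Prc1 was called lower in 9, Kif23 in 8 and Ect2 in 5. Prc1, the bundler of the central spindle, read 1212 and 1315 on the controls, 700 in Ifnar-/- cells and 1326 after sLTβR-Fc. Its Ifnar-/- difference was 1.8-fold (log2 difference -0.85 ± 0.21 SE, limma adjusted p = 0.0018). Kif23, the motor of the centralspindlin complex, read 2259 and 2427 on the controls, 1459 in Ifnar-/- cells and 2618 after sLTβR-Fc. Kif23 fell by 0.68 ± 0.20 SE on the log2 scale (limma adjusted p = 0.0103), with a further probe called at -0.84 and others at -0.28 and 0.04 that were not called. Ect2, the exchange factor that switches on RhoA at the cleavage furrow, read 120 and 122 on the controls, 101 in Ifnar-/- cells and 115 after sLTβR-Fc. Ect2 was not above background on the Ifnar-/- array, which gives a bound of at least 1.08-fold lower (limma adjusted p = 0.0229). This bound sets the controls against the higher of the dim array's own value and its background limit. The Ect2 call was lost under median scaling, with the median of probes, without a variance trend and with the floor.

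Top2a, the topoisomerase that untangles and compacts mitotic chromosomes, read 477 and 437 on the controls, 230 in Ifnar-/- cells and 358 after sLTβR-Fc. The Ifnar-/- array was 1.99-fold lower (log2 difference -0.99 ± 0.19 SE, limma adjusted p = 4.4e-05). Further Top2a probes lay at -0.30 and -0.23 and were not called.

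Across the 10 roles, at least 1 member was called lower on the Ifnar-/- array in each, and in 6 roles every tested member lay below both controls. The role medians ran from -0.32 for the kinetochore genes to -0.99 for Top2a alone, and each was negative also as deposited, under median scaling and after normexp correction. Over the 22 called members that were above background on all 4 arrays, the fold ran from 1.33 to 2.9. The 14 members that were not called lay between -0.51 and 0.14, 9 of them below both controls, and 6 of the 14 were not above background on every array.

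**Figure D2:**
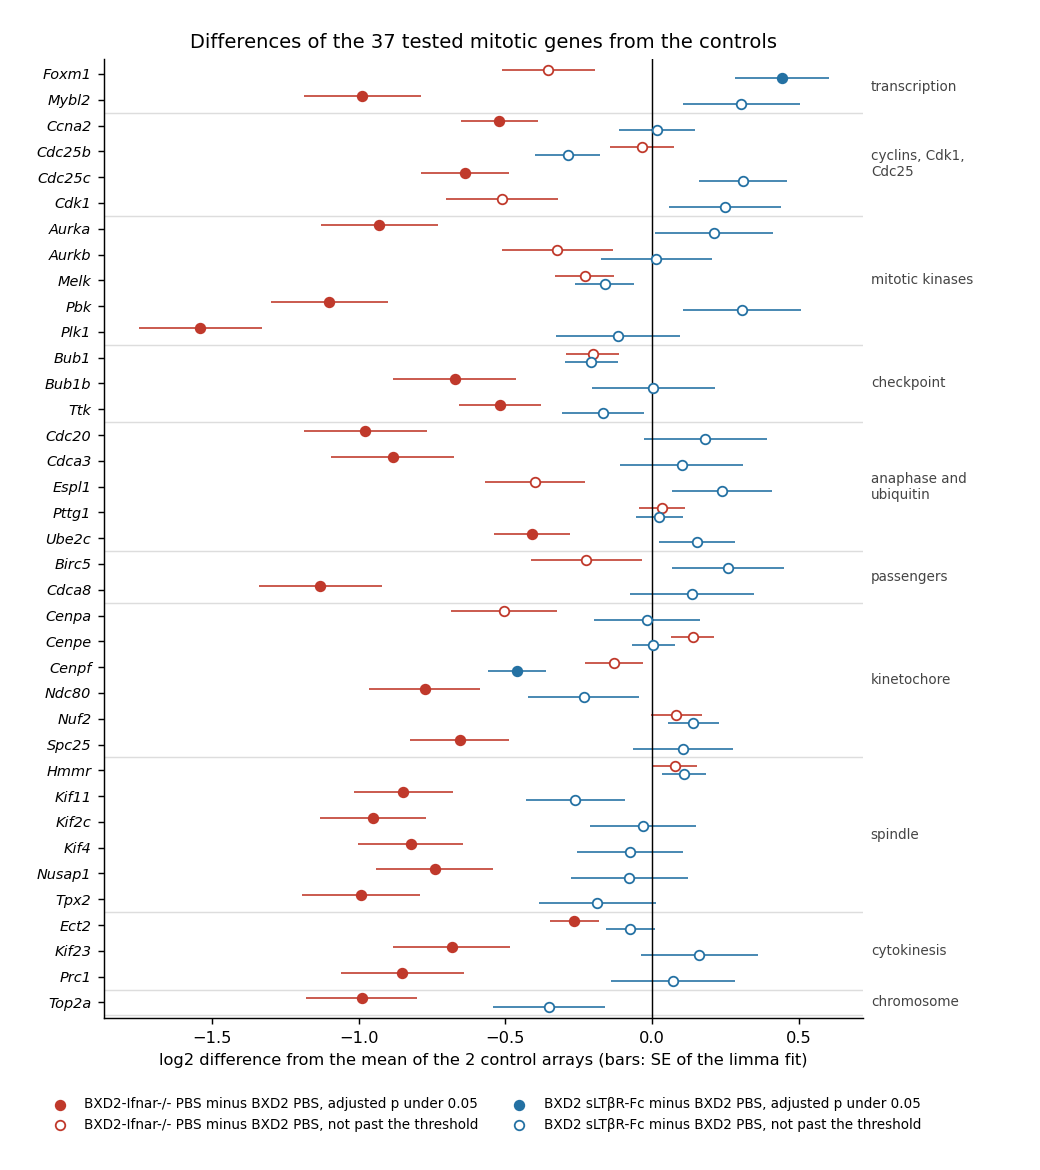
Log2 difference of the Ifnar-/- array (red) and the sLTβR-Fc array (blue) from the mean of the 2 control arrays for the 37 mitotic genes tested, with the SE of the limma fit as bars and filled points for an adjusted p under 0.05. Of the red points 23 are filled and all of these lie left of 0, while of the blue points 1 is filled on each side (Cenpf and Foxm1).

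The 43 further probes of the members give a second reading from the same RNA. Of these, 30 were above background on at least 1 array, and 19 on all 4. Among those 19, 16 read lower on the Ifnar-/- array than the control mean and 6 were called lower in a fit of all 23432 probes above background, in which 5.87% of probes were called lower. Of the 23 genes called lower, 7 have a single probe and 15 have a further probe above background. For 7 of these 15 a further probe was called lower as well. Their 21 further probes included 18 with a negative difference. These genes were picked by their call on the same array, so that count is description only. By the brightest probe, 46.4% of all genes tested had a difference at or below 0, and the share over all further probes was not counted. Taking the median of a gene's probes in place of the brightest left 15 members called lower and a median of -0.30, and the calls lost were those of Bub1b, Ect2, Kif23, Kif4, Mybl2, Nusap1, Top2a and Ttk. A fit without a variance trend kept 18 and lost Ccna2, Cdc25c, Ect2, Ttk and Ube2c. Raising all values to a floor at the mean background limit left 0 calls among the members and among all genes in limma, with 21 members lower and 0 higher at an unadjusted p below 0.05.

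**Figure D3:**
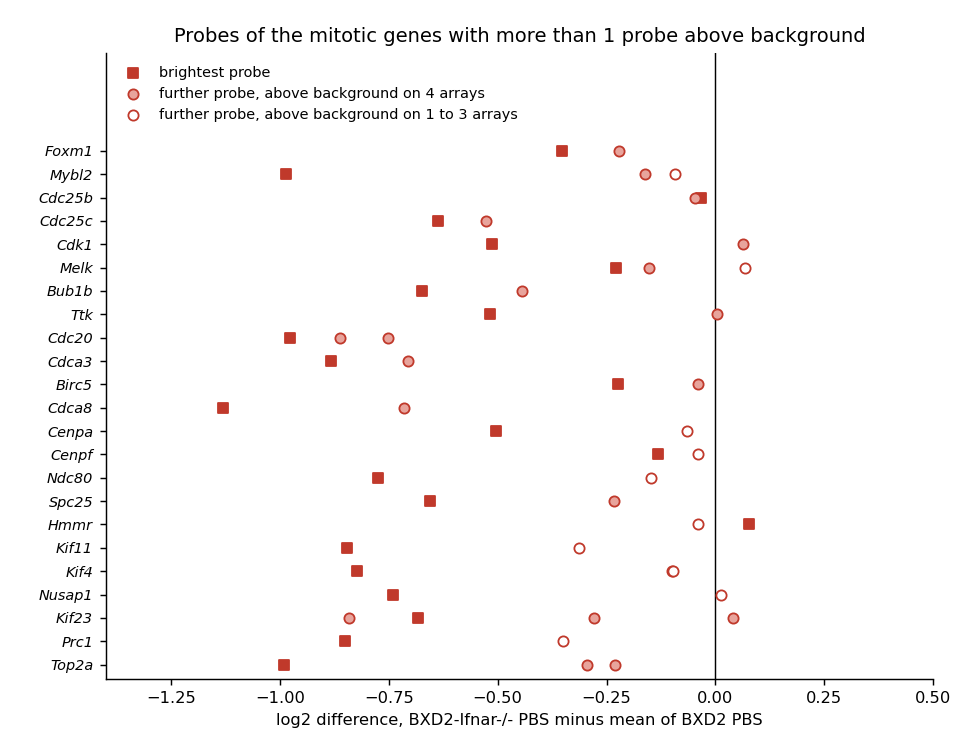
Log2 difference of the Ifnar-/- array from the control mean for each probe above background of the 23 mitotic genes with more than 1 such probe, with squares for the brightest probe, filled circles for further probes above background on 4 arrays and open circles for those above it on 1 to 3. Among the genes called lower, which were picked by their call on this same array, 18 of the 21 further probes shown lie left of 0. The pair of Cdc20 lies close to its brightest probe.

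After quantile normalisation, the same genes showed no common direction on the sLTβR-Fc array. Under other scalings the members lay below all genes there. The medians were -0.49 against -0.22 as deposited, and -0.036 against 0.23 under median scaling. The median log2 difference from the controls was 0.018, the same as that of all genes tested, and the range was -0.46 to 0.44. The sLTβR-Fc array read below both controls for 12 of the 37 genes and above both for 17, where 35.9% of all genes lay below both and 43.9% above both. The limma fit called 1 member lower and 1 higher, with 6.4% of all genes called lower and 8.2% higher. At an unadjusted p below 0.05 there were 3 lower and 2 higher, smaller shares than the 12.2% and 15.4% of all genes. No member reached a log2 difference of 1 from each control, where 0.473% of all genes were lower and 1.03% higher by that rule. Of the 23 genes that fell on the Ifnar-/- array, 11 read above both controls on the sLTβR-Fc array, 4 between them and 8 below both, with differences from -0.35 to 0.31.

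The member called higher was Foxm1, at 290 against 202 and 225 (log2 difference 0.44 ± 0.16 SE, limma adjusted p = 0.0491), with a further probe also called at 0.44, but the difference was -0.10 in the values as deposited. The member called lower was Cenpf, at 102 against 147 and 135, which was not above background on the sLTβR-Fc array and so was at least 1.26-fold lower (limma adjusted p = 0.00034). The Cenpf and Foxm1 calls were both lost under median scaling, with the floor and without a variance trend, and that of Foxm1 also with no filter or with genes above background on all 4 arrays. Both controls of Cenpf were above background, and its Ifnar-/- value was 128.

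Calls on the sLTβR-Fc array depended on how the arrays were scaled. In the values as deposited, 17 members were called lower and 0 higher with a member median of -0.49, while over all genes limma called 4669 lower and 163 higher with a median of -0.22. Under median scaling, 1 member was called lower and 4 higher, neither Cenpf nor Foxm1 among them, with a member median of -0.036, while over all genes 1498 were lower and 4673 higher with a median of 0.23. On the Ifnar-/- array the values as deposited gave 29 members lower and 0 higher (member median -0.86), where limma called 1863 of all genes lower and 194 higher (median -0.14). Under median scaling 23 members were lower and 0 higher (member median -0.61), where 904 of all genes were lower and 758 higher (median 0.11). The 23 members called lower kept their sign under both, while Nuf2, Hmmr and Pttg1, which were not called, lay just below 0 as deposited.

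**Figure D4:**
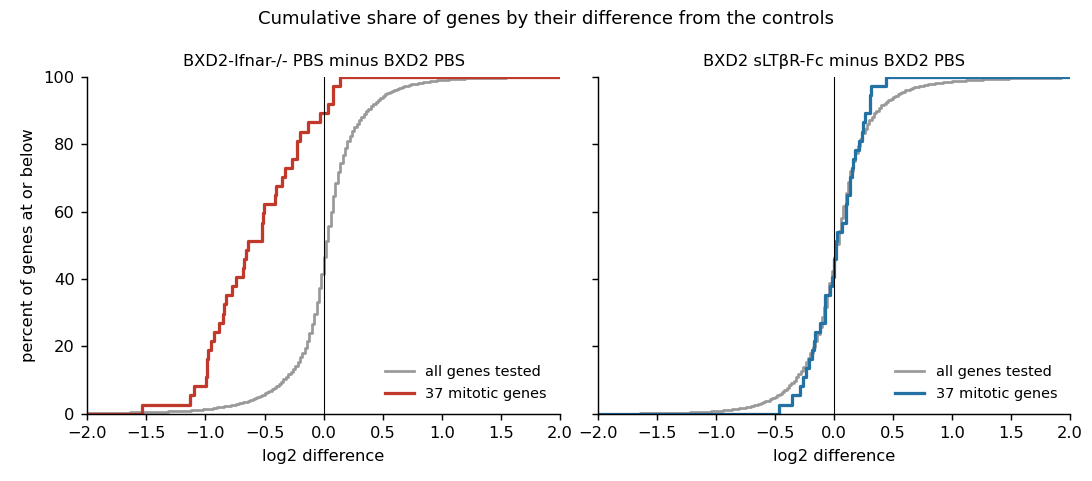
Cumulative share (percent) of genes at or below each log2 difference from the controls, for the Ifnar-/- array (left) and the sLTβR-Fc array (right), with the 37 mitotic genes in colour and all 14369 genes tested in grey. The red curve runs left of the grey one, with medians of -0.64 and 0.015, and the blue curve follows the grey one, with a median of 0.018 for both. All values are quantile normalised, and the position of the blue curve depends on that scaling.

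Set directly against each other, the 2 lone arrays differed for these genes. The Ifnar-/- array read below the sLTβR-Fc array for 32 of the 37 genes (51.7% of all genes) and above it for 5 (48.3%), with a median log2 difference of -0.64 against -0.0079 for all genes. The limma fit called 21 members lower on the Ifnar-/- array and 1 higher, where 5.73% of all genes were lower and 4.29% higher. This contrast holds 1 array on each side, borrows its spread from the control pair, and shares the Ifnar-/- array with the first comparison. A log2 difference of at least 1 was seen for 6 members, all lower, and for 1.59% of all genes lower and 0.745% higher. These 6 were Plk1, Pbk, Mybl2, Cdca8, Cdc20 and Aurka, with log2 differences of -1.42, -1.41, -1.29, -1.27, -1.16 and -1.14. Of the 23 genes that fell against the controls, 18 were also called lower against the sLTβR-Fc array, and the other 3 calls were Cdk1, Foxm1 and Espl1. The gene called higher was Cenpf, which was not above background on the sLTβR-Fc array. In the values as deposited this contrast kept 3 calls lower and 0 higher, with a member median of -0.35 and 0.056 for all genes.

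Other mitotic genes, a list of 86 with 77 tested that shares no member with the first, also fell on the Ifnar-/- array. There, 34 were called lower and 0 higher, with a median of -0.36, where 6.71% of all genes were lower and 6.52% higher. At an unadjusted p below 0.05 there were 44 lower and 1 higher (11.7% and 12.8% of all genes). Knl1, the kinetochore scaffold that docks Bub1 and BubR1, read 749 and 470 on the controls, 163 in Ifnar-/- cells and 300 after sLTβR-Fc (Ifnar-/- log2 difference -1.87 ± 0.20 SE, limma adjusted p = 6.92e-12). Ncapg, a subunit of condensin, read 586 and 514, then 174 and 357 (-1.65 ± 0.19 SE, limma adjusted p = 7.87e-11). Lmnb1, which encodes lamin B1 of the nuclear envelope, read 1902 and 1564, then 519 and 1356 (-1.73 ± 0.21 SE, limma adjusted p = 3.8e-10). On the sLTβR-Fc array 6 of the 77 were called lower and 5 higher with a median of 0.0023, where 6.4% of all genes were lower and 8.2% higher. The smallest p values there belonged to Cip2a (-0.65), Knl1 (-0.98) and Smc4 (-0.90), all lower. Scaling moved that split to 36 lower and 0 higher as deposited and to 12 lower and 13 higher under median scaling. The split of all genes moved to 4669 lower and 163 higher, and to 1498 lower and 4673 higher.

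Genes of S phase, the stage of DNA copying that comes before mitosis, were lower on the Ifnar-/- array too. Of 42 tested, 16 were called lower and 0 higher with a median of -0.41, beside 6.71% and 6.52% of all genes. At an unadjusted p below 0.05 there were 27 lower and 1 higher (11.7% and 12.8% of all genes). Rrm2 and Rrm1, which make deoxynucleotides as ribonucleotide reductase, fell by 1.49 and 1.36 on the log2 scale, and Mcm10, a replication initiation factor, fell by 1.44. On the sLTβR-Fc array 3 were called lower and 0 higher, beside 6.4% and 8.2% of all genes. The median there was 0.032, and those called were Ccne1, Mcm4 and Cdc6. At an unadjusted p below 0.05 there were 7 lower and 4 higher (12.2% and 15.4% of all genes). As deposited, 20 S-phase genes were called lower there with a median of -0.57, and under median scaling 6 with a median of -0.12, with 0 higher in both. Of all genes, 4669 were lower and 163 higher there as deposited, and 1498 and 4673 under median scaling.

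Subunits of the anaphase-promoting complex and cohesin, most of which are made throughout the cycle, had shares of calls near those of all genes on the Ifnar-/- array. By position, 15 of the 27 tested lay below both controls there and 7 above both, where 35.2% and 42.7% of all genes did. On the Ifnar-/- array 2 of 27 were called lower and 1 higher with a median of -0.075, where 6.71% and 6.52% of all genes were called. These were Wapl (-1.68), which unloads cohesin, the cohesin subunit Smc3 (-0.58) and Cdc26 (0.50), the last of which was not called in the values as deposited or under median scaling. Wapl read 2455 and 2280 on the controls, 737 in Ifnar-/- cells and 1083 after sLTβR-Fc, and was called lower on both lone arrays. On the sLTβR-Fc array 3 of the 27 were lower and 0 higher, namely Wapl, Cdc27 and Pds5a, beside 6.4% and 8.2% of all genes. At an unadjusted p below 0.05 there were 5 lower and 3 higher (12.2% and 15.4% of all genes). As deposited, 15 of this list were lower and 0 higher there (median -0.65), and under median scaling 8 were lower and 3 higher (median -0.20). Among all genes the same settings gave 4669 lower and 163 higher, and 1498 lower and 4673 higher.

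The listed regulators of the cycle were mainly E2F, pocket protein, MuvB, NF-Y and Cdk inhibitor genes, with Wee1, Pkmyt1 and Cdc25a among the others. Of 23 tested, 4 were called lower and 1 higher on the Ifnar-/- array with a median of -0.14, against 6.71% and 6.52% of all genes. As deposited the regulator counts were 11 lower and 0 higher, and under median scaling 6 lower and 1 higher. Those of all genes were 1863 lower and 194 higher, and 904 lower and 758 higher. Cdkn1a, which encodes the Cdk inhibitor p21, read 140 and 135 on the controls, 197 in Ifnar-/- cells and 356 after sLTβR-Fc. Cdkn1a was higher on both, by 0.52 ± 0.15 SE (log2, limma adjusted p = 0.00978) and by 1.37 ± 0.15 SE (log2, limma adjusted p = 1.03e-11), but the former was not called in the values as deposited. Cdkn1b, which encodes the inhibitor p27, read 412 and 508 on the controls, 285 in Ifnar-/- cells and 276 after sLTβR-Fc, and was called lower on both. E2f6 and Rbl1, both linked to repression of cycle genes, were called lower on the Ifnar-/- array at -0.75 and -0.69, and Nfyb, an NF-Y subunit, on the sLTβR-Fc array at -0.87. Pkmyt1 was the remaining call lower on the Ifnar-/- array, at -0.61. On the sLTβR-Fc array 3 regulators were lower and 1 higher (6.4% and 8.2% of all genes), 12 and 1 as deposited, and 6 and 4 under median scaling. All genes gave 4669 and 163 there as deposited, and 1498 and 4673 under median scaling.

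**Figure D5:**
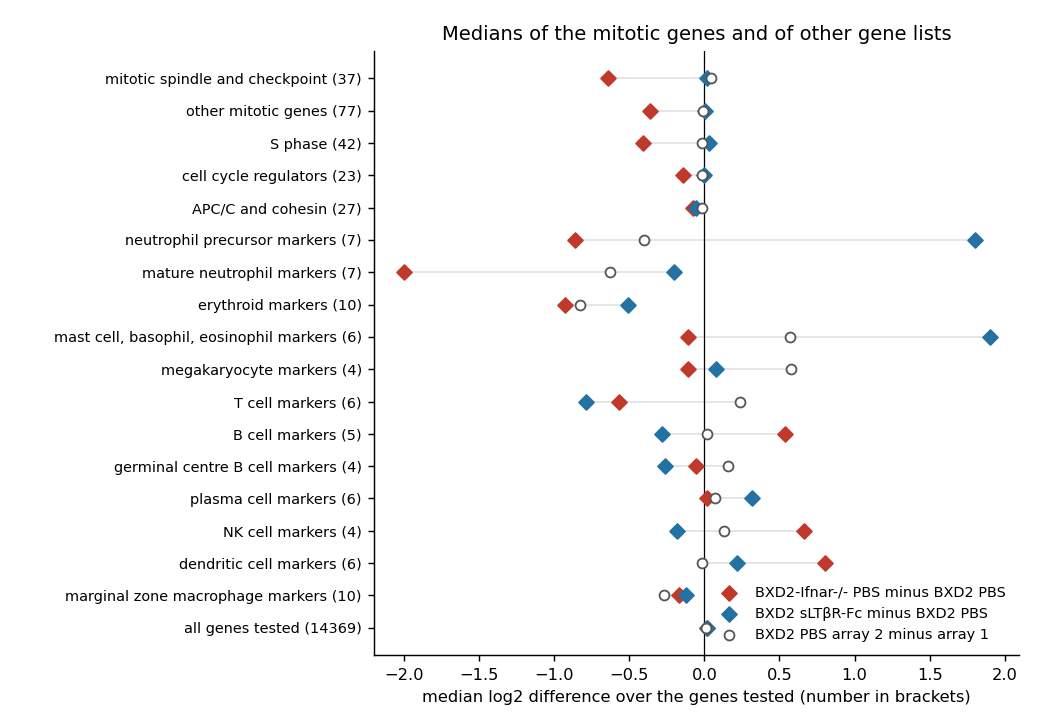
Median log2 difference over the tested genes of each list (number in brackets) for the Ifnar-/- array minus the controls (red), the sLTβR-Fc array minus the controls (blue) and control 2 minus control 1 (open circles). The mitotic list lies at -0.64, 0.018 and 0.046, and the widest gaps between the controls are those of erythroid (-0.83), mature neutrophil (-0.63), megakaryocyte (0.58) and mast cell, basophil and eosinophil (0.57) markers.

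Markers of other cells moved between the arrays as well, and the sort could have let some of these cells through. The counts of markers called below stand beside 6.71% of all genes called lower and 6.52% higher on the Ifnar-/- array. On the sLTβR-Fc array those shares were 6.4% and 8.2%. Summed over the 37 members, the intensity was 22715 and 23735 on the controls, 14073 in Ifnar-/- cells and 24033 after sLTβR-Fc. The 10 erythroid markers summed to 17024 and 7785 on the controls, 6621 in Ifnar-/- cells and 8035 after sLTβR-Fc, with 7 called lower in Ifnar-/- cells and 3 after sLTβR-Fc. Klf1, the factor that drives erythroid genes, read 1137 and 898 on the controls, 380 in Ifnar-/- cells and 409 after sLTβR-Fc, and was called lower on both lone arrays, as were Ermap and Trim10. Tfrc, the transferrin receptor, read 1510 and 1023, then 565 and 852, and was called lower on the Ifnar-/- array. These 4 were picked after their values were seen. Of the other erythroid markers tested, Epor, Hba-a1 and Slc4a1 were also called lower on the Ifnar-/- array. Gata1, Alas2 and Hbb-bt were not called there. Gata1 differed by 0.01, Alas2 read 446 and 171 on the controls and 204 in Ifnar-/- cells, and Hbb-bt read 7921 and 3224, then 3681. The 7 neutrophil precursor markers summed to 40720 and 30929 on the controls, 18120 in Ifnar-/- cells and 74672 after sLTβR-Fc. Of these, 5 were called lower on the Ifnar-/- array and all 7 higher on the sLTβR-Fc array. The 7 mature neutrophil markers summed to 19951 and 11584, then 3167 and 20588, with 6 called lower on the Ifnar-/- array.

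The 6 T cell markers summed to 7632 and 9169 on the controls, 5347 in Ifnar-/- cells and 4409 after sLTβR-Fc, with 3 and 4 called lower. The 5 B cell markers tested summed to 17265 and 16851, then 25598 and 12359, with 3 called higher on the Ifnar-/- array and Pax5 not above background on any array. Of the 4 germinal centre B cell markers tested, 1 was called lower in Ifnar-/- cells and none after sLTβR-Fc, and Rgs13 and Mybl1 were not above background on any array. Of 6 dendritic cell markers 4 were called higher in Ifnar-/- cells and 2 after sLTβR-Fc. Of 4 NK cell markers 2 were called higher in Ifnar-/- cells and 1 lower after sLTβR-Fc. The 6 markers of mast cells, basophils and eosinophils summed to 7515 and 10565, then 6423 and 37326, with 1 called lower on the Ifnar-/- array and 6 higher on the sLTβR-Fc array. Of 6 plasma cell markers 1 and 2 were called higher, and of 4 megakaryocyte markers 1 was called lower on the Ifnar-/- array and 1 higher on the sLTβR-Fc array. Of the 10 marginal zone macrophage markers tested, 4 were called lower in Ifnar-/- cells and 2 after sLTβR-Fc, with sums of 2589 and 1689 on the controls, then 1552 and 1812. As deposited, limma called 1863 of all genes lower and 194 higher in Ifnar-/- cells, and 4669 lower and 163 higher after sLTβR-Fc. In those values 0 B cell markers were called higher in Ifnar-/- cells. After sLTβR-Fc they gave 5 B cell, 7 erythroid, 4 germinal centre, 4 mature neutrophil and 4 NK cell markers called lower. No dendritic or plasma cell markers were called higher after sLTβR-Fc as deposited. The part of these cells in the difference of the mitotic genes was not tested.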

How the data were processed

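Total RNA was extracted with Trizol and labelled with biotin (Ambion MessageAmp), as the labels' protocols state. GenomeStudio 2011.1 is named in the submitters' processing notes. The authors deposited linear intensities, 1 per probe and array; the sources used here do not give any background subtraction, scaling or filter. Of 45281 probes, 34885 have 1 gene symbol in the platform annotation, 18 have several and 10378 have none. Only the first were used.

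A probe counted as above background past the 95% point of noise mirrored about the array's most frequent value. Values were quantile normalised and converted to log2 without a floor. Each gene was represented by its brightest probe (by mean over arrays). The 14369 genes that passed background anywhere were fitted in limma 3.58.1 (R 4.3.3) as 3 group means with eBayes and a mean-variance trend. The control pair supplies the 1 residual degree of freedom, beside a prior of 77.5. Benjamini-Hochberg adjustment ran over all genes tested, with a threshold of 0.05. The labels do not say whether the control arrays came from different mice, so the p-values rest on the spread of these 2 arrays alone, and that spread may be technical. Their number limits the precision.

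Log2 differences understate changes of dim genes, since background remains in the values. Array values of every called member are given, the rest by range and counts, and from other lists up to 3 genes per comparison by smallest p, with a few markers and other genes named beside them. The limma fit was tested on simulated log2 values, in which every array was given the spread of the control pair. Normalisation, the background limit and the choice of probe were not simulated. The members and lists were chosen with earlier results of these data known. The alternatives were values as deposited, median scaling, normexp (offset 50), a floor at 111, other filters, probe rules and priors, and leaving out each control.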

Additional observations from a re-analysis of the deposited data

How the results depend on the processing

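On the Ifnar-/- array the count of members called lower stayed within 1.5 times of 23, apart from 15 with the median of a gene's probes and 0 with the floor, under which limma called 0 of all genes. Across the 9 tested settings other than the floor, 12 members were called lower each time: Plk1, Aurka, Pbk, Cdc20, Cdca8, Cdca3, Ndc80, Spc25, Kif11, Kif2c, Tpx2 and Prc1. The member median was -0.86 as deposited, -0.70 with normexp, -0.71 for genes above background on all 4 arrays, -0.52 with no filter and -0.30 with the median of probes, and from -0.65 to -0.62 leaving out 1 control. With the median of probes the difference of Ttk became 0.00321 and that of Nusap1 0.0371.

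On the sLTβR-Fc array, called lower against higher was 17 against 0 as deposited, 1 against 4 under median scaling and 0 against 0 with the floor. Without a variance trend it was 0 against 0, with the robust prior 2 lower, and 0 higher for genes above background on all 4 arrays or with no filter. The member median was -0.49 as deposited, -0.036 under median scaling and from 0.013 to 0.055 leaving out 1 control. As deposited, Foxm1 was at -0.10.

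Between the lone arrays, 3 members were lower as deposited, 0 with the floor, 13 with the median of probes and 12 without a trend. The 1 called higher became 0 in each of these and under median scaling, genes above background on all 4 arrays, no filter and every probe fitted. The median was -0.35 as deposited, -0.54 under median scaling, -0.75 with normexp, -0.75 for genes on all 4 arrays, -0.59 with no filter and -0.35 with the median of probes.

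The cause of these shifts was not tested, beyond fewer genes tested under a filter. The prior degrees of freedom also differed between the fits. They were 77.5 in the main fit, 0.965 with the floor, 4.27 without a trend and 17.1 with the median of probes. With normexp they were 154, and under median scaling infinite. Without a control array no test is possible, as no residual degree of freedom is left, and this was run as values. No paired analysis was possible, because the labels give no pairing of the arrays and each lone group holds 1 array. Dim members, with signal close to background, limit what a difference of theirs can show.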
